A study of Mus musculus with 15 samples.

Results

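The cells described here are Gria4, Plcxd3 and C7 fibroblasts of the mouse aorta, a class of fibroblasts that carries RNA of 5 genes, Gria4, Plcxd3, C7, Naaladl2 and Galnt17, called set C below. A cell was a member when it had UMIs of at least 3 of these genes and of more of them than of set A (Cd248, Sema3c, Penk, Gfpt2 and Ccl11) or of set B (Ccn5, Fmod, Sfrp2, Cpxm2 and Pdgfrl), which define 2 neighbouring fibroblast classes by the same rule. It also had to lack Ptprc, the pan-leukocyte gene, and Cdh5, the endothelial cadherin gene, and to have a UMI of Pdgfra, Lum, Col1a1 or Col1a2. A UMI marks 1 captured RNA molecule. The rule found 4274 members among 128019 cells, which is 3.34% of all cells and 14.7% of the 29122 cells that passed the fibroblast gate. Set A cells numbered 8103 and set B cells 3085. The 15 genes of the rule were chosen from these counts, so their levels in the classes are given as a description, with no test.

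Aortas of wildtype C57BL/6N mice, male and female, were dissociated and sequenced with a droplet method. The study set vehicle against fisetin in young mice (Y VEH and Y FIS) and in old mice (O VEH and O FIS). The series text gives the young mice as 3 months and the old mice as 27 months, while the methods of the study give a later age for the young mice. Fisetin, a plant flavonol given as a senolytic, and its vehicle of ethanol, PEG400 and Phosal were given by gavage for 1 week, stopped for 2 weeks and given for 1 more week. All groups but O VEH had 4 libraries, 2 of females and 2 of males, whereas for O VEH 2 libraries were of females and 1 of males. By the labels 3 mice were pooled for each library, which serves as the replicate in every comparison below.

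Adventitial fibroblasts lie in the outer coat of the artery, where they make collagens, elastic fibre proteins and proteoglycans, and secrete complement proteins and chemokines. C7 is a late component of the complement cascade that joins the membrane attack complex. Gria4 encodes a subunit of AMPA-type glutamate receptors, which are ion channels best known from synapses. Plcxd3 encodes a protein with a phospholipase C X domain, Naaladl2 a relative of the glutamate carboxypeptidases, and Galnt17 a member of the family of enzymes that start O-linked glycosylation. The defining markers of fibroblasts were present: of the members, 98.8% had a UMI of Dcn, 97.8% of Col1a2, 89.4% of Col1a1, 80.9% of Pdgfra and 67.4% of Lum. The last 4 of these belong to the gate, of which each cell needed 1 gene only, and Dcn was not used by the rule. A Dcn UMI was also found in 59.7% of endothelial cells and 58.5% of B cells. The mean was 6.90 and 4.61 Dcn UMIs per cell there, against 135.6 in members.

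Members had a median of 5894 UMIs, below the 12506 of set A cells and the 10042 of set B cells, and each library held between 78 and 1030 members. By group, 855 members came from Y VEH, 1843 from Y FIS, 630 from O VEH and 946 from O FIS, and Y FIS M1 alone gave 1030. Of 128328 distinct barcodes, 2203 occurred in more than 1 library, and 2 of them were members in more than 1. Scrublet called 28 members (0.655%) doublets against 1.95% of all cells. It called 0 cells in O VEH F1 and 4 in Y FIS F2 and so did not work in those 2 libraries.

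The rule draws its bounds by gene counts that rise with depth, and whether the class is a separate type was not tested. Of the members, 1141 had 3 genes of set C, 1767 had 4 and 1366 had all 5, and their median depths were 3489, 5538 and 9189 UMIs. Just outside the rule, 781 gated cells had 2 genes of set C and led both other sets, at a median of 2729 UMIs. Another 7666 gated cells had at least 3 genes of set C but as many or more of set A or set B. A lead of 1 gene over the next set made 2255 of the members (52.8%), and 66.6% of members had at least 2 genes of set A. Prlr, which the rule did not use, had a pooled level of 27.3 CPM (summed UMIs of the gene scaled to a common library size) in the cells with 2 genes of set C, 53.9 CPM in members with 3 and 70.04 CPM in members with 5. Frmd5, also outside the rule, was highest in the cells just outside, at 90.3 CPM against 40.8 and 52.3 CPM in members with 3 and with 5.

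RNA of other cell types was present in some members. At least 3 markers of 1 other type were found in 912 members, of which 386 had smooth muscle, 157 pericyte, 140 endothelial, 115 erythroid, 103 Schwann and glial, 82 macrophage, 78 mesothelial, 11 B cell and 0 T cell markers. Of the 82 with macrophage markers 35 came from Y VEH F1, whose members had 663 CPM of Lyz2, a lysozyme gene of macrophages, where the other libraries had 0.732 to 104 CPM. Of the 115 with erythroid markers 44 came from O VEH F1. Results without these 912 cells are given with the other alternatives at the end.

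All 5 genes of set C were detected together in 31.96% of members, and Gria4, Plcxd3, C7 and Naaladl2 without Galnt17 in a further 23.2%. C7 had a UMI in 91.3% of members, 35.96% of set A cells and 64.6% of set B cells. Plcxd3 was detected in 84.9%, 31.2% and 50.3% of the 3 classes and Gria4 in 75.1%, 20.1% and 47.0%. Naaladl2 separated them least, with 96.1%, 84.7% and 77.3%, and Galnt17 was detected in 57.9%, 32.4% and 15.7%. In endothelial cells, which have a median of 4166 UMIs, between 1.49% (Galnt17) and 7.61% (Naaladl2) of cells had a UMI. The source of these UMIs was not tested.

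On the scale of mean CPM over the 15 libraries, normalized jointly over the 3 classes, C7 stood at 1836 ± 967 CPM in members (SD, n = 15) against 455 in set A and 769 in set B cells. Plcxd3 stood at 735 ± 207 CPM against 162 and 353, and Gria4 at 655 ± 174 CPM against 104 and 373. Naaladl2 had 937 ± 117 CPM against 603 and 519, and Galnt17 183 ± 58.7 CPM against 68.7 and 30.03. Each of the 5 genes was higher in members than in both other classes in 15 of 15 libraries, as the rule arranges.

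The 5 genes lie on 4 chromosomes of GRCm39. C7 (ENSMUSG00000079105) is at chr15:5017233-5093252 on the minus strand and Plcxd3 (ENSMUSG00000049148) at chr15:4404973-4605058 on the plus strand, 412.2 kb apart. Gria4 (ENSMUSG00000025892) is at chr9:4417604-4796326, Naaladl2 (ENSMUSG00000102758) at chr3:23852266-25198425 and Galnt17 (ENSMUSG00000034040) at chr5:130900923-131337335, all 3 on the minus strand. Nlgn1, 282.0 kb from Naaladl2, was also among the genes highest in members relative to both other classes.

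Outside the rule genes, the genes with the largest excess in members included a hormone receptor, cadherins and scaffold proteins. Prlr, the prolactin receptor, had 70.2 ± 52.5 CPM in members against 15.7 in set A and 7.45 in set B cells, and was above both in 15 of 15 libraries. Frmd5, of a family of membrane-linked scaffolds, had 52.9 ± 26.6 CPM against 4.91 and 15.6. Dlgap1, a scaffold of the postsynaptic density, had 50.8 ± 46.3 CPM against 8.21 and 6.93. Cdh13, a cadherin anchored without a cytoplasmic part, had 240 ± 91.7 CPM against 86.5 and 58.0. Each of these 4 was above both classes in 15 of 15 libraries, and each SD is over the libraries. Summed nuclear and RNA quality genes had a mean of 32084 CPM in members, 23527 in set A and 27145 in set B cells. The part of such RNA in the profile was not tested.

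Several leading genes were shared with 1 of the neighbours only. Sntg1, a syntrophin, had 598 ± 397 CPM in members and 539 in set A cells but 45.1 in set B cells. Col6a5, a collagen chain, had 87.8 ± 97.7 CPM, 91.1 and 5.84 CPM in the same order. Cdh12, a neuronal-type cadherin, had 53.8 ± 36.6 CPM against 4.74 in set A and 37.4 in set B cells. Cadm2, Gpm6a and Muc16 also ranked among the 30 genes with the largest excess, with a UMI in 1.33%, 3.09% and 1.66% of members. With at least 4 genes of set C required, their differences were -0.01, -0.47 and -0.28 on the log2 scale in place of 3.16, 1.67 and 1.64. Of the 30 leading genes, 22 stayed among the leading 30 under that stricter rule and 20 after thinning of each cell to 3000 UMIs.

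The genes lowest in members relative to the neighbours included matrix and chemokine genes. Ccn3, a matricellular protein, had 25.6 ± 13.5 CPM in members against 70.2 in set A and 120 in set B cells, and Thy1, a surface protein of many fibroblasts, had 37.1 ± 20.4 CPM against 104 and 63.7. Both were below both classes in 15 of 15 libraries. Thbs2, an antiangiogenic matrix protein, had 38.5 ± 19.2 CPM against 61.6 and 148, and Col12a1, a fibril-associated collagen, 29.2 ± 13.5 against 54.1 and 125. The chemokine genes Ccl2 (4.36 ± 5.34 CPM) and Ccl7 (6.07 ± 8.68 CPM) were low in members and in set B cells and stood at 59.2 and 37.7 CPM in set A cells. Vegfd, a lymphangiogenic growth factor, had 149 ± 42.7 CPM in members, 147 in set A and 742 in set B cells.

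**Figure D1:**
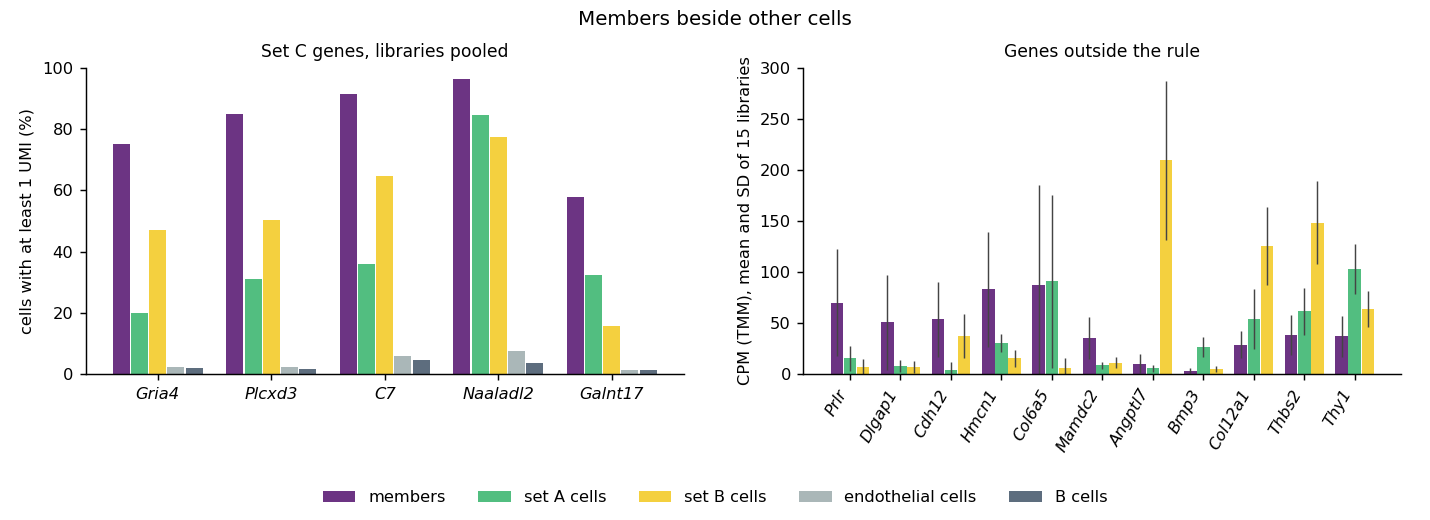
Left, the percentage of cells with at least 1 UMI of each set C gene, pooled over libraries, in members, set A cells, set B cells, endothelial cells and B cells. Right, mean CPM with the SD over 15 libraries in members, set A and set B cells for 11 genes outside the rule, where Prlr, Dlgap1 and Cdh12 are highest in members and Thbs2 and Thy1 lowest, and Col6a5 is as high in set A cells.

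Of the other terminal complement genes, C6 had 3.36 ± 4.69 CPM in members, and C8a, C8b and C9 each had under 1 CPM. The central component C3 had 2757 ± 942 CPM in members, 3253 in set A and 1173 in set B cells, and C2 had 188 ± 48.4 CPM against 97.3 and 110. Of the glutamate receptor genes, Grik2, a kainate receptor subunit, had 28.3 ± 6.63 CPM against 14 and 12.7 and was above both classes in 15 of 15 libraries. In the BMP pathway, Gdf10, a BMP-like ligand, had 510 ± 116 CPM against 307 and 282, again above both in 15 of 15, and Bmpr1b, a type I BMP receptor, had 58.7 ± 51.6 CPM against 11.3 and 29.2.

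To compare the abundance of the class between conditions, each cell was thinned to 3000 UMIs, shallower cells were left out and the rule was applied again. This changed which cells were members. In Y FIS M1, 623 of 1030 members were deep enough, as were 1143 of 1249 set A cells. Of those 623 members 462 stayed members, and 728 cells were members after thinning. In O FIS F2, 58 of 78 members were deep enough and 32 stayed, with 51 members after thinning. The shares describe the rule at that depth and not the same cells. The share of members among the cells of the 3 classes was then 26.3% ± 7.80 for Y VEH (SD, n = 4) and 27.8% ± 10.1 for Y FIS (n = 4). It was 31.4% ± 8.99 for O VEH (n = 3) and 30.6% ± 9.01 for O FIS (n = 4). With the female libraries first, Y VEH had 24.6%, 16.6%, 29.1% and 35.1%, Y FIS had 17.8%, 20.7%, 34.5% and 38.2%, O VEH had 29.1%, 23.7% and 41.3%, and O FIS had 25.2%, 21.1%, 35.1% and 40.8%. The groups overlapped throughout. O VEH minus Y VEH was 5.01 percentage points (two-sided exact permutation p = 0.486, adjusted p = 0.943 over 4 comparisons), O FIS minus O VEH was -0.80 (p = 0.943) and Y FIS minus Y VEH was 1.42 (p = 0.8), where 0.0286 is the smallest p such a comparison allows. Old minus young was 3.84 points over both treatments (exact permutation p = 0.379). These tests took no account of sex, and O VEH had 1 male library of 3. With groups permuted within each sex, added later, the exact permutation p was 0.389 for O VEH minus Y VEH and 0.889 for O FIS minus O VEH. It was 0.611 for Y FIS minus Y VEH and 0.107 for old minus young. Female means were 26.4% in O VEH and 23.15% in O FIS, and male means 41.3% and 37.95%. Without thinning, the group means were 23.4%, 27.3%, 26.8% and 28.6%. Y FIS M1 had the lowest share of cells deep enough for thinning, 54.6% against 66.9% to 81.4% in the other libraries.

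Shares differed by sex. Male libraries had 36.3% ± 4.20 members (n = 7) and female libraries 22.3% ± 4.13 (n = 8), a difference of 13.9 points (exact permutation p = 0.000311). In each of the 4 groups every male library was above every female library, and the difference was 11.5 points for Y VEH, 17.1 points for Y FIS, 14.9 points for O VEH and 14.8 points for O FIS. This comparison was chosen after the data were seen, and it reads the rule genes, which differed by sex themselves. With the rule cut to 3 genes a set (Gria4, Naaladl2 and Galnt17 for set C) and a minimum of 2 of them, male libraries had 28.4% ± 4.85 and female libraries 22.8% ± 3.30, a difference of 5.58 points (exact permutation p = 0.0174), with overlap between the sexes. This rule still holds Gria4, which differed by sex in gated cells as given next, so that its share is not free of the sex difference of the rule genes. The genes left out were picked for differing by sex. The reduced rule also takes partly other cells. In Y FIS M1 it found 509 members, of which 418 were among the 728 of the full rule. In Y FIS F2 it found 122, of which 53 were among the 107 of the full rule.

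The sex difference of the rule genes was also present in cells taken by the gate alone, where no gene of the 3 sets and no sex was used to choose cells. Among all gated cells thinned to 3000 UMIs, C7 was detected in 56.8% ± 5.34 of cells in male libraries (51.4% to 64.1%, n = 7) and in 22.4% ± 3.95 in female libraries (17.5% to 27.1%, n = 8). No library of one sex came near the other, and the difference of 34.3 points had an exact permutation p of 0.000155, the smallest that 7 against 8 libraries allow (adjusted p = 0.000777 over 10 tests). Plcxd3 was detected in 40.3% ± 4.57 and 21.03% ± 5.67 (difference 19.3 points, adjusted p = 0.000777), also without overlap. Gria4 was detected in 32.2% ± 6.29 and 20.6% ± 4.07 (difference 11.6 points, adjusted p = 0.00311), with overlap. Naaladl2 differed by -0.34 points (adjusted p = 0.932) and Galnt17 by 1.65 points (adjusted p = 0.360). Between old and young libraries, Naaladl2 was detected in 63.8% ± 2.31 and 58.0% ± 5.46 of gated cells (difference 5.83 points, adjusted p = 0.0435) and Galnt17 in 14.6% ± 2.05 and 17.6% ± 2.47 (difference -3.04 points, adjusted p = 0.0482). The age differences of C7, Plcxd3 and Gria4 had adjusted p-values of 0.932, 0.420 and 0.351. These tests were added after the data were seen.

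**Figure D2:**
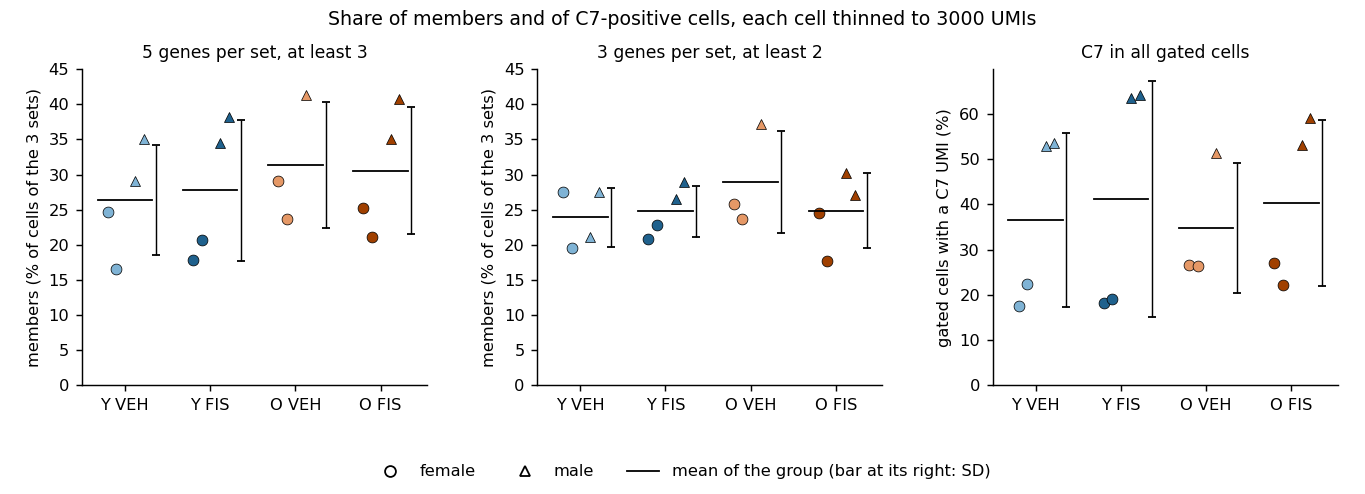
The y axes give, per library after thinning to 3000 UMIs, the percentage of members among the cells of the 3 classes under the full rule (left) and under the rule with 3 genes a set (middle), and the percentage of gated cells with a C7 UMI (right), with circles for females, triangles for males, a line for the group mean and a bar at its right for the SD. Within each group the males lie above the females in the left and right panels, while in the middle panel the sexes overlap in Y VEH.

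Within members, the level of C7 followed the same order. It ranged from 1901 to 3568 CPM with a median of 2274 in male libraries and from 732 to 1945 CPM with a median of 1089 in female libraries, with overlap by 1 female library, O VEH F2. Plcxd3 had medians of 996 and 632 CPM and Gria4 of 884 and 597 CPM. These are values of rule genes and carry no test. Of the genes within 1 Mb of C7, 5 passed the filters for testing and none of them was a DAR between the sexes. Of the 7 tested within 1 Mb of Plcxd3 1 was, Ghr, the growth hormone receptor gene 791.9 kb away, which was lower in males (-0.42, SE 0.10, adjusted p = 0.0342). Of all tested genes 2.32% were called between the sexes by the test described below. Lists this short cannot be set against that share, and nothing about the regions follows from them.

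Counts of the members were then summed per library and tested with edgeR's quasi-likelihood test with group and sex as terms. A gene was called a differentially abundant RNA (DAR) when its adjusted p lay under 0.05 and its fold change beyond 0.25 on the log2 scale. The comparison of O VEH with Y VEH asks for the effect of age in vehicle-treated mice. It gave 24 DARs of 8684 tested genes (percent called 0.276), 17 higher (0.196%) and 7 lower (0.0806%) in O VEH, with 625 genes (7.2%) at an unadjusted p under 0.05, and DESeq2 called 67. The count rested on single libraries: the fit without O VEH M1, the only male library of that group, gave 4 DARs. Over both treatments, old against young, 158 of 8414 genes were DARs (percent called 1.88), 100 higher (1.19%) and 58 lower (0.689%) in old mice. At an unadjusted p under 0.05 there were 1019 genes (12.1%), and DESeq2 called 242. Leaving out each library in turn gave 104 to 210, the lowest without Y VEH M2. Naaladl2 and Galnt17 of the rule differed by age in gated cells, so the rule may take different cells in old and in young mice. The part of this choice of cells in the differences by age, here and against the neighbouring classes, was not tested. All levels that follow are CPM of the members' summed counts after TMM normalization, and all fold changes are on the log2 scale for old against young unless another pair is named.

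Some genes of the complement, antigen presentation and interferon lists rose with age. C4b (ENSMUSG00000073418, chr17:34947354-34962912), which encodes complement C4, ranged from 94.8 to 266 CPM in the 8 young libraries with a median of 170, and from 319 to 721 CPM in the 7 old libraries with a median of 547. No old library reached down to a young one. The change was 1.66 (SE 0.22, adjusted p = 0.00189), and in vehicle mice alone it was 1.68 (SE 0.32, adjusted p = 0.0488), a call that 4 of the 15 fits without 1 library kept. C4b has a near-identical copy, C4a, so that its count is uncertain to that extent. Cfb, of the alternative complement pathway, ranged from 139 to 240 CPM in young and from 218 to 364 CPM in old libraries (0.64, SE 0.14, adjusted p = 0.0150). They were the 2 DARs among 11 tested complement genes, against 1.19% of all tested genes called higher, and the list median was 0.27. C3 (0.45), C2 (0.39) and the regulator gene Cd55 (-0.52) did not pass the test.

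Of 14 tested antigen presentation genes, 6 were DARs, all higher with age, against 1.19% of all tested genes called higher. All 14 had positive changes, with a median of 0.54 where the median of all tested genes was -0.01. H2-K1, a classical MHC class I heavy chain, ranged from 299 to 399 CPM in young libraries (median 327) and from 482 to 1014 CPM in old libraries (median 682), without overlap. Its change was 0.98 (SE 0.14, adjusted p = 0.000617), and it was also a DAR between O VEH and Y VEH (0.99, SE 0.20, adjusted p = 0.0435), kept in 7 of the 15 fits without 1 library. B2m, the light chain of class I molecules, rose from a median of 476 to 697 CPM without overlap (0.64, SE 0.10, adjusted p = 0.00214). H2-D1 (0.65), H2-Q4 (0.90), H2-Q7 (1.68) and H2-T23 (0.45) were the others, and these class I genes resemble one another closely enough that the split of counts among them is uncertain. The class II genes Cd74, H2-Aa, H2-Ab1 and H2-Eb1, which mark antigen-presenting immune cells, had adjusted p-values of 0.669, 0.603, 0.270 and 0.380.

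Of 30 tested interferon response genes 5 were DARs, all higher with age, against 1.19% of all tested genes. All 30 changes were positive, where 47.2% of all tested genes had positive changes, and the list median was 0.45. The 5 were the immunoproteasome subunits Psmb8 (0.63, adjusted p = 0.00239) and Psmb9 (0.53, adjusted p = 0.0231), the tethering protein gene Bst2 (0.56, adjusted p = 0.0184), Rtp4 (0.92, adjusted p = 0.0425) and the GTPase gene Igtp (1.13, adjusted p = 0.0349). Irf7, a regulator of interferon genes, ranged from 3.52 to 8.23 CPM in Y VEH and from 15.998 to 20.5 CPM in O VEH (1.63, SE 0.30, adjusted p = 0.0279), a call kept in 10 of the 15 fits without 1 library. Over both treatments Irf7 fell short of the 10% of cells with a UMI that testing required and was not tested. Its call in vehicle mice thus depends on that filter. Neither interferon nor antigen presentation genes had a DAR between the sexes. Macrophage, neutrophil and B cell markers were also at positive changes with age in members, with medians of 0.88 over 3 tested genes, 2.30 over 2 and 1.20 over 1, and none of them passed the test. Erythroid markers had a median of 2.52 over 3 tested genes, also without a DAR. Summed macrophage markers ranged from 7.94 to 753 CPM in young and from 51.6 to 131 CPM in old libraries, and their part in these changes was not tested.

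Several secreted signals rose as well. Cxcl12, a chemokine that holds haematopoietic cells and lymphocytes in tissue, ranged from 509 to 716 CPM in young libraries (median 583) and from 753 to 2021 CPM in old libraries (median 1164), without overlap. Its change was 0.96 (SE 0.19, adjusted p = 0.0110), and in vehicle mice alone it was 0.88 (SE 0.27, adjusted p = 0.328). Tnfsf13b, the B cell survival factor BAFF, rose from a median of 48.8 to 97.0 CPM without overlap (0.95, SE 0.12, adjusted p = 0.000434). Ccl19, a ligand of CCR7 on lymphocytes and dendritic cells, had medians of 72.1 and 122 CPM (0.69, SE 0.15, adjusted p = 0.0247). With Il1r1, the receptor of interleukin 1 (0.51, adjusted p = 0.00369), these were 4 DARs of 11 tested chemokine and cytokine genes, against 1.19% of all tested genes called higher, with a list median of 0.38. Mmp3, the protease stromelysin 1, ranged from 316 to 806 CPM in young and from 945 to 1845 CPM in old libraries, again without overlap (1.07, SE 0.20, adjusted p = 0.0112). Of the 9 tested genes of senescence and the SASP, Cxcl12 and Mmp3 were the 2 DARs, against the same 1.19%, and the list median was 0.12.

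Beyond the lists, the largest increase was that of C130026I21Rik, from 0 to 4.12 CPM in young to 22.2 to 38.7 CPM in old libraries (3.84, SE 0.25, adjusted p = 2.61e-08). Tmem176a and Tmem176b, a pair of neighbouring membrane protein genes, rose by 1.56 and 1.32 (adjusted p = 0.00706 and 0.00357). Kng2, a kininogen gene, rose by 2.09 (SE 0.34, adjusted p = 0.00618) and Folh1, a glutamate carboxypeptidase of the same family as Naaladl2, by 1.10 (SE 0.22, adjusted p = 0.0165). Casp4, an inflammatory caspase gene 512.5 kb from Gria4, rose from a median of 28.5 to 56.8 CPM (0.91, adjusted p = 0.00189). Pdpn, the fibroblast surface protein podoplanin, was a DAR between O VEH and Y VEH (0.89, SE 0.13, adjusted p = 0.00499) and remained one in all 15 fits without 1 library.

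Several genes of the collagen matrix fell with age. Of 20 tested fibrillar collagens and processing genes 7 were DARs, all lower, against 0.689% of all tested genes called lower, and the list median was -0.33. Col3a1 ranged from 2069 to 4239 CPM in young libraries (median 3617) and from 1242 to 2881 CPM in old libraries (median 1913), with overlap (-0.88, SE 0.15, adjusted p = 0.00239). Col1a1 had medians of 1928 and 1095 CPM (-0.79, SE 0.15, adjusted p = 0.00650) and Col1a2 of 3975 and 2527 CPM (-0.62, SE 0.14, adjusted p = 0.0296). Both count among the 7 DARs although they belong to the gate, of which each cell needed 1 gene only. The part of the gate in their changes was not tested. Col5a1, a chain of the collagen that starts fibrils, ranged from 229 to 308 CPM and from 177 to 200 CPM, without overlap (-0.53, SE 0.09, adjusted p = 0.00345). Col5a3, Serpinh1, the collagen chaperone HSP47, and P4ha1, a subunit of prolyl 4-hydroxylase, completed the 7 with changes of -0.59, -0.61 and -0.53.

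All 18 tested basement membrane genes had negative changes, with a median of -0.25, where 47.2% of all tested genes had positive ones. Of the 18 genes 4 were DARs, against 0.689% of all tested genes called lower. Sparc, a collagen-binding matricellular protein, ranged from 3190 to 4755 CPM in young libraries (median 3756) and from 1890 to 3014 CPM in old libraries (median 1980), without overlap (-0.82, SE 0.14, adjusted p = 0.00291). Col15a1 (-0.76), Lamb1 (-0.61) and Lamc1 (-0.45), a basement membrane collagen and 2 laminin chains, were the others. Of 10 tested FACIT and other collagens, Col6a1 (-0.56) and Col6a2 (-0.45) were lower. Of 18 tested genes of elastic fibres and fibulins 0 were DARs by edgeR's test in either direction, with 5 higher and 3 lower at an unadjusted p under 0.05, where 12.1% of all tested genes had such a p. In vehicle mice alone, none of the collagen and basement membrane DARs named here passed the test, and Col3a1 and Col1a1 had changes of -0.65 and -0.69 (adjusted p = 0.342 and 0.339).

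Of 43 tested position and lineage factors, 1 was lower with age and 1 higher, with a list median of 0.02. These shares lie near those of all tested genes, 0.689% and 1.19%, and the genes are given singly. The higher one was Meox2, a homeobox factor (0.51, adjusted p = 0.0276). Tcf21, the lower one, a transcription factor of mesenchymal cells, ranged from 17.8 to 51.7 CPM in young libraries (median 27.0) and from 8.74 to 13.9 CPM in old libraries (median 11.4), without overlap (-1.43, SE 0.24, adjusted p = 0.00474). Outside that list, Ebf2, a factor of the adipocyte lineage, ranged from 466 to 657 CPM and from 286 to 438 CPM, also without overlap (-0.55, SE 0.12, adjusted p = 0.0150). Itm2a, a membrane protein gene (-1.40, SE 0.19, adjusted p = 0.00189), Il31ra, an interleukin 31 receptor chain (-1.20, SE 0.24, adjusted p = 0.0231), Rbp4, a retinol carrier (-0.97, SE 0.20, adjusted p = 0.0247), and Cd34 (-0.53, adjusted p = 0.0375) fell. Tcf21 and Itm2a remained DARs in all 15 fits without 1 library, Rbp4 in 7 and Serpinh1, above, in 4. Some genes of the list of nuclear RNA and RNA quality fell alongside: 6 of 10 tested, Xist among the 10, were DARs, all lower, against 0.689% of all tested genes, with a median of -0.75. The 6 were Cmss1, Cdk8, Lars2, Camk1d, Gm15564 and Meg3. The nuclear RNAs Malat1 (-0.07), Neat1 (-0.18) and Kcnq1ot1 (-0.11) did not pass the test. Cmss1 had medians of 2694 and 1418 CPM (-1.0015, SE 0.14, adjusted p = 0.000617), and in vehicle mice it fell by 1.45. The part of RNA quality in the other changes was not tested.

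**Figure D3:**
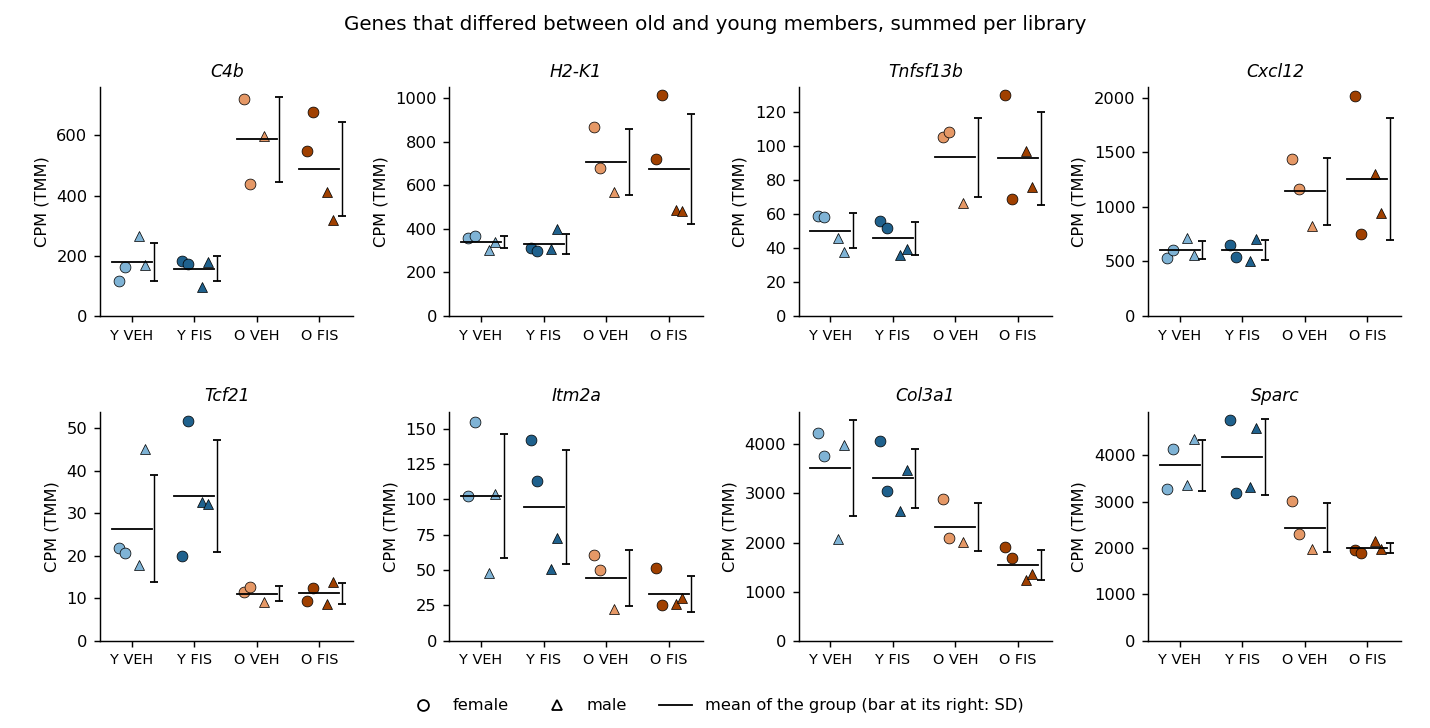
Summed counts of members as CPM per library on linear axes for 8 genes, by group, with circles for females, triangles for males, a line for the group mean and a bar at its right for the SD. C4b, H2-K1, Tnfsf13b and Cxcl12 are higher in every old library than in any young library and Tcf21 and Sparc lower, whereas old and young libraries overlap for Itm2a and Col3a1.

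With the filter on low counts, fisetin gave no DAR in members. Without it, 74 genes passed between O FIS and O VEH and 51 between Y FIS and Y VEH. Between O FIS and O VEH, 0 of 8708 genes passed edgeR's test (percent called 0), 328 had an unadjusted p under 0.05 (3.77%), and DESeq2 called 0. Between Y FIS and Y VEH, 0 of 8094 genes passed, 178 had an unadjusted p under 0.05 (2.2%) and DESeq2 called 0. C4b had 599, 721 and 440 CPM in O VEH and 413, 319, 547 and 678 CPM in O FIS, which overlapped (-0.26, SE 0.31). Cxcl12 had 823, 1442 and 1164 CPM in O VEH and 1298, 946, 2021 and 753 CPM in O FIS (0.17, SE 0.27), and H2-K1 differed by -0.04 (SE 0.20). Col3a1 had 2002, 2881 and 2082 CPM in O VEH and 1242, 1356, 1913 and 1678 CPM in O FIS, so that the groups did not overlap, but its difference of -0.54 (SE 0.21) had an adjusted p of 1.00. Among genes that differed with age, Cmss1 stood at 0.72 for O FIS against O VEH, with 1201, 1159 and 781 CPM in O VEH and 1636, 2060, 1897 and 1418 CPM in O FIS. The interferon list had a median of -0.16 over 32 tested genes and the fibrillar collagen list of -0.10 over 21, where the median of all tested genes was -0.00455. Both comparisons share the vehicle libraries with the comparison by age.

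The age response of members was set against that of the neighbouring classes by testing the difference of the effects, with libraries as blocks. Against set A cells 0 of 9655 genes differed by edgeR's test (percent called 0), with 468 (4.85%) at an unadjusted p under 0.05, and DESeq2 called 4. Against set B cells 17 of 9042 genes differed (percent called 0.188), 4 with a larger (0.0442%) and 13 with a smaller (0.144%) change in members, and 682 (7.54%) had an unadjusted p under 0.05. Mme, the membrane metalloendopeptidase neprilysin, fell with age in set B cells (-2.03, SE 0.21, adjusted p = 7.39e-06) while its change in members was -0.06 (SE 0.19), at 6.10 to 17.8 CPM in all libraries, and the difference was 1.90 (SE 0.26, adjusted p = 0.000535). Efemp1, the elastic fibre protein fibulin 3, rose by 1.55 in set B cells (adjusted p = 3.27e-09) and had a change of 0.49 in members (adjusted p = 0.0752), a difference of -1.03 (SE 0.13, adjusted p = 0.000127). Rspo1, an enhancer of WNT signalling, rose by 1.73 in set B cells (adjusted p = 0.000327) and had a change of 0.11 in members, a difference of -1.57 (SE 0.24, adjusted p = 0.0145). Prkg1, the cGMP-dependent protein kinase, rose in members (0.68, SE 0.12, adjusted p = 0.00474) and had a change of -0.11 in set B cells. Ebf2 fell in members and had a positive change of 0.42 in set B cells (adjusted p = 0.248), a difference of -0.97 (adjusted p = 0.0330). Mme remained called in all 15 fits without 1 library and Ebf2 in 10.

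The comparison of the sexes also checks the labels. Between male and female libraries 197 of 8488 genes were DARs (percent called 2.32), 120 higher (1.41%) and 77 lower (0.907%) in males, with 1173 (13.8%) at an unadjusted p under 0.05, and DESeq2 called 298. Leaving out each library in turn gave 134 to 245, the lowest without Y VEH M2. Sex-linked genes matched the labels: Xist ranged from 658 to 764 CPM in female libraries and from 0 to 0.686 CPM in male libraries, and Ddx3y from 0 to 4.58 and from 73.8 to 83.9 CPM. Of 10 tested sex-linked genes 4 were higher and 5 lower in males. C7, Plcxd3 and Gria4 of the rule differed by sex in gated cells, so the rule may take different cells in males and in females. The part of this choice of cells in the differences by sex, here and against the neighbouring classes, was not tested. Fold changes below are for males against females.

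Sult1e1 (ENSMUSG00000029272, chr5:87723828-87739461), the oestrogen sulfotransferase, ranged from 28.3 to 422 CPM in the 7 male libraries (median 159) and from 0 to 2.31 CPM in the 8 female libraries (median 0.254), without overlap. The fitted change was 7.84 (SE 0.53, adjusted p = 1.06e-05), a value that depends on the prior count since some female libraries had 0 counts. Within males, the libraries of Y FIS had 422 and 361 CPM and those of O FIS 28.3 and 67.2 CPM. The male vehicle libraries lay within the range of 28.3 to 422 CPM, and Y FIS was not tested against O FIS. Tdo2, tryptophan dioxygenase, ranged from 6.41 to 74.0 CPM in males and from 0 to 10.7 CPM in females (2.70, SE 0.48, adjusted p = 0.0120). Cyp7b1, a hydroxylase of oxysterols and steroids, was lower in males, at a median of 17.2 against 54.1 CPM (-1.33, SE 0.26, adjusted p = 0.0175). L3mbtl4, a chromatin reader gene, ranged from 10.3 to 99.3 CPM in males and from 0 to 4.07 CPM in females (4.99, SE 0.47, adjusted p = 7.27e-05).

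A receptor, an antagonist and a target of BMP signals were higher in males. Bmpr1b ranged from 44.8 to 183 CPM in males (median 68.2) and from 13.7 to 45.4 CPM in females (median 25.9), so that 1 male library lay just under the highest female library (1.88, SE 0.24, adjusted p = 0.00106). Chrdl1, a secreted BMP antagonist, had medians of 161 and 69.1 CPM (1.09, SE 0.21, adjusted p = 0.0129) and Id3, a target of BMP signals, of 645 and 432 CPM (0.71, SE 0.14, adjusted p = 0.00786). They were the 3 DARs of 24 tested BMP and TGF-beta genes, against 1.41% of all tested genes called higher in males, with a list median of 0.11. Serpine2, the protease inhibitor nexin 1, ranged from 71.3 to 140 CPM in males and from 7.96 to 49.6 CPM in females, without overlap (2.48, SE 0.25, adjusted p = 0.000182). Nr2f2, the nuclear receptor COUP-TFII, had medians of 513 and 345 CPM (0.70, SE 0.11, adjusted p = 0.00171), and Ramp1, which joins the receptor of the peptide CGRP, was higher by 2.26 (SE 0.42, adjusted p = 0.0128).

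Eln, the elastin gene, and the crosslinking genes Lox and Plod2 were lower in males. Eln ranged from 225 to 511 CPM in males (median 382) and from 533 to 1469 CPM in females (median 700), without overlap (-0.99, SE 0.19, adjusted p = 0.00746). Lox, the crosslinking enzyme lysyl oxidase, had medians of 87.1 and 139 CPM (-0.72, SE 0.13, adjusted p = 0.00386) and Plod2, a lysyl hydroxylase, of 92.2 and 153 CPM (-1.01, SE 0.19, adjusted p = 0.0111). With Col5a3 (-0.58) these last were 3 DARs of 20 tested fibrillar collagen and processing genes, against 0.907% of all tested genes called lower in males, and the list median was -0.10. Loxl1 (-0.39, adjusted p = 0.112), Loxl2 (-0.06), Loxl3 (0.07), Plod1 (0.17) and Plod3 (0.03) of the same enzyme families did not pass the test. Of 18 tested elastic fibre genes, Eln and Fbln1 (-0.47) were lower and Ltbp1, a carrier of latent TGF-beta, was higher (0.44), against 0.907% of all tested genes called lower and 1.41% called higher.

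Several genes that led the members' profile were higher in females. Dlgap1 ranged from 45.3 to 154 CPM in females (median 67.1) and from 10.9 to 20.02 CPM in males (median 14.4), without overlap (-2.35, SE 0.25, adjusted p = 0.000213). Ano4, of the anoctamin family of channels and scramblases, ranged from 25.3 to 206 CPM in females and from 0 to 5.13 CPM in males (fitted change -5.34, SE 0.54, adjusted p = 0.000347). Cdh12 ranged from 40.1 to 146 CPM in females and from 14.2 to 37.4 CPM in males (-1.63, SE 0.33, adjusted p = 0.0242). Prlr had medians of 91.2 and 35.7 CPM, and its change of -1.84 (SE 0.51) did not pass the test (adjusted p = 0.110). The noncoding RNA 6530403H02Rik went the other way, with 16.5 to 120 CPM in males and 0.462 to 12.2 CPM in females (3.45, SE 0.53, adjusted p = 0.00587).

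Some immediate early genes, which respond within minutes to stimuli and to tissue dissociation, were also higher in males. Of 21 tested genes of the immediate early and stress list 5 were DARs, all higher, against 1.41% of all tested genes called higher, and 16 changes were positive, with a median of 0.43 where that of all tested genes was -0.000969. Ier2 had medians of 349 CPM in males and 116 CPM in females (1.32, SE 0.25, adjusted p = 0.0153), and Nr4a1 of 125 and 39.6 CPM (1.29, SE 0.23, adjusted p = 0.00978). Junb (0.81), Klf4 (0.49) and Hspa1b (0.80) were the others, and Fos (0.43, adjusted p = 0.385) did not pass. The summed list ranged from 5274 to 6756 CPM in males and from 3508 to 5665 CPM in females. Pecam1, an endothelial gene, was higher in members of males as well (median 26.8 against 17.3 CPM, change 0.76, SE 0.15, adjusted p = 0.00743), and summed endothelial markers ranged from 74.0 to 196 CPM in males and from 56.4 to 99.8 CPM in females. The part of dissociation and of endothelial RNA in the differences by sex was not tested.

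**Figure D4:**
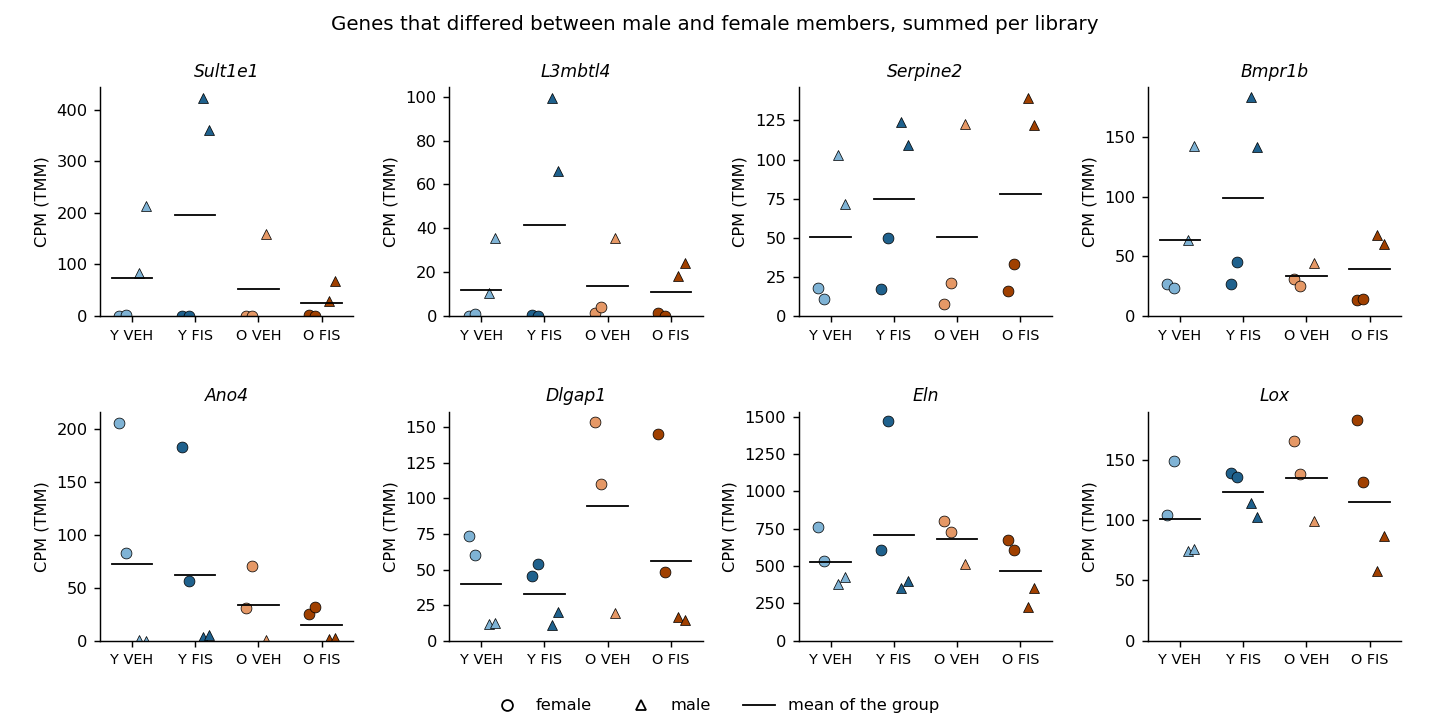
Summed counts of members as CPM per library on linear axes for 8 genes, by group, with circles for females, triangles for males and a line for the group mean over both sexes. Sult1e1, L3mbtl4 and Serpine2 are higher in every male library than in any female library and Ano4, Dlgap1 and Eln lower, whereas the sexes overlap across groups for Bmpr1b and Lox.

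The effect of sex was set against that in the neighbours in the same way. Against set A cells the sex effect differed for 42 of 9599 genes (percent called 0.438), 22 with a larger (0.229%) and 20 with a smaller (0.208%) value in members, 1074 (11.2%) had an unadjusted p under 0.05, and DESeq2 called 39. Abcb1a, a drug efflux pump, was lower in male members (-0.82, SE 0.15, adjusted p = 0.00332) and had a change of 0.31 in set A cells (adjusted p = 0.211), a difference of -1.16 (SE 0.16, adjusted p = 0.000723). Gja1, the gap junction protein connexin 43, was lower in male members (-0.74, SE 0.16, adjusted p = 0.0168) with a change of 0.01 in set A cells, a difference of -0.74 (adjusted p = 0.00277). Lox was among these genes too (difference -0.66, adjusted p = 0.0492), a call kept in 4 of the 15 fits without 1 library. Rasgrf1, an activator of RAS, differed by 1.46 (SE 0.21, adjusted p = 0.000723), and Dpyd, which breaks down pyrimidines, was higher in male members (0.90, SE 0.15, adjusted p = 0.00332) with a change of 0.01 in set A cells.

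Against set B cells 6 of 9118 genes differed by sex (percent called 0.0658), 3 with a larger (0.0329%) and 3 with a smaller (0.0329%) value in members, with 590 (6.47%) at an unadjusted p under 0.05. Ecm1, a secreted matrix glycoprotein, ranged from 641 to 1121 CPM in male and from 387 to 528 CPM in female members, without overlap (0.90, SE 0.13, adjusted p = 0.000302), and had a change of -0.00085 in set B cells (adjusted p = 0.999), a difference of 0.90 (SE 0.11, adjusted p = 0.000225). Prkd1, a protein kinase of the D family, was higher in male members (1.32, SE 0.24, adjusted p = 0.0128) with a change of 0.24 in set B cells, a difference of 1.04 (SE 0.14, adjusted p = 0.000364). Ntrk2, the receptor of the neurotrophin BDNF, was lower in male members (-0.73, SE 0.15, adjusted p = 0.0145), at medians of 133 and 209 CPM, and differed from set B cells by -0.60 (adjusted p = 0.0292), a call kept in 6 of the 15 fits without 1 library. Arl4a (0.68), Rarres2, the chemoattractant chemerin (-0.68), and Syne1 (-0.87) were the other 3.

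**Figure D5:**
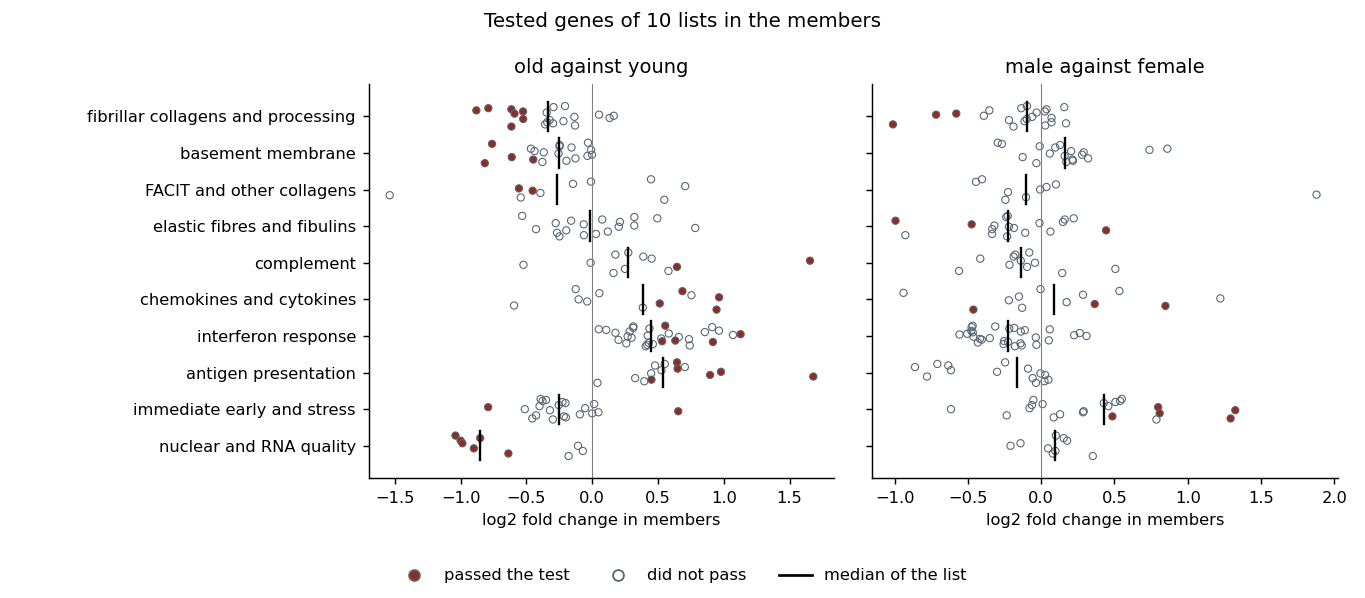
Log2 fold changes in members for the tested genes of 10 lists, old against young (left) and male against female (right), with filled points for genes that passed the test, open points for the others and a vertical line for the list median. Xist is not drawn, so the median of the nuclear and RNA quality list differs from that in the text. With age the antigen presentation and interferon genes lie to the right of 0 and the basement membrane genes to its left.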

How the data were processed

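The deposited tables hold UMI counts of each gene in each cell, whole numbers that the authors had not normalized. The submitters' processing notes name Cell Ranger 8.0.1, Seurat 5.2.0 and GRCm39. Libraries held 49964001 to 74587567 UMIs. Cells with 200 to 7000 genes and at most 25% mitochondrial UMIs were kept, 128019 of 130551. The members and all gene lists were chosen with earlier results of these data known. Counts of members were summed per library (718149 to 4960180 UMIs) and tested with edgeR 4.0.16 (quasi-likelihood, TMM, group and sex as terms, all 15 libraries, filterByExpr and then genes with a UMI in over 10% of cells of either group, Benjamini-Hochberg adjustment). Differences of effects were tested in members with set A cells and in members with set B cells, in separate fits with libraries as blocks. DESeq2 1.42.0 was an alternative. Tests of shares were two-sided exact permutation tests. Scrublet ran in scanpy 1.11.5 at an expected rate of 0.08, and its calls were not removed. R 4.3.3 and Python 3.11.15 with scipy 1.17.1, pandas 2.3.3 and numpy 2.4.6 were used. The edgeR tests of age, of sex and of a difference of age effects were also run on simulated counts. Named genes were the 12 DARs of largest increase and decrease per contrast, every DAR of a list, and for the profile the 30 highest and 15 lowest genes above 20 CPM, of which the text gives a selection; Casp4 and Nlgn1 were named for their position, and values of further list members after they were seen. Profile differences are log2 CPM (prior count 2) against the mean of set A and set B cells. Since each library is a pool, p-values measure the spread between pooled libraries. Gene positions are from GENCODE on GRCm39. Some items are not reported here.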

Additional observations from a re-analysis of the deposited data

Results flagged for a closer look

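The genes with a difference in log2 effect were named because a test of the difference itself, edgeR's quasi-likelihood test on summed counts with libraries as blocks, found the effect of age or sex in members to differ from that in a neighbouring class. Each value is the log2 effect in members minus that in the other class. For age against set B cells (17 genes called) and sex against set A cells (42 called), only a selection is listed.

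For age against set B cells, the difference was positive for Mme (1.90), Prkg1 (0.79), Gm56906 (0.69) and Phactr1 (0.57). It was negative for Dpep1 (-0.58), Zfp462 (-0.64), Arhgap20 (-0.70), Dnm1 (-0.77), Lmo2 (-0.85), AW112010 (-0.86), Negr1 (-0.87), Ebf2 (-0.97), Efemp1 (-1.03), Ppfia2 (-1.55), Rspo1 (-1.57) and Snhg11 (-2.997). AW112010 rose in both classes, by 0.53 in members and by 1.38 in set B cells. Several calls did not hold: of the 15 fits that each left out 1 library, Lmo2 was kept in 3, Zfp462, AW112010 and Snhg11 in 4, Phactr1 in 5 and Ppfia2 in 7. DESeq2's adjusted p was 0.359 for Lmo2 and Zfp462, 0.167 for AW112010 and Snhg11, 0.201 for Ppfia2, 0.196 for Dnm1, 0.136 for Gm56906 and 0.0740 for Phactr1 and Arhgap20.

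For sex against set A cells, with males minus females, the difference was positive for Rasgrf1 (1.46), Calcrl (1.09), Daglb (1.05), Plekha6 (0.97), Enox1 (0.89), Dpyd (0.89), Nav3 (0.89), Pla1a (0.85), Frmd4a (0.83), Csmd1 (0.83), Rtn4rl1 (0.76), Adamts15 (0.64) and Ror1 (0.54). It was negative for Ier3 (-0.47), Tgfb3 (-0.52), Cfb (-0.64), Socs2 (-0.66), Lox (-0.66), Pltp (-0.69), Fmo2 (-0.69), Cdc42ep3 (-0.70), Gja1 (-0.74), Lgi2 (-0.80), Slc7a2 (-0.84), Sbsn (-0.89), Ankrd29 (-0.93), 9330159F19Rik (-1.13) and Abcb1a (-1.16). Pltp was higher in male set A cells (0.83, adjusted p = 0.0110) with a change of 0.14 in members. Sbsn turned to 0.12 without the 912 members that held markers of another cell type. Of the 15 fits, Enox1, Adamts15, Ror1 and Ier3 were kept in 3, Lox, Sbsn and Ankrd29 in 4, Plekha6 in 5, and Frmd4a, Csmd1 and Fmo2 in 7. DESeq2's adjusted p lay between 0.0598 and 0.138 for Calcrl, Plekha6, Enox1, Rtn4rl1, Adamts15, Ier3, Tgfb3, Sbsn and Ankrd29.

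For sex against set B cells the difference was positive for Prkd1 (1.04), Ecm1 (0.90) and Arl4a (0.68), and negative for Ntrk2 (-0.60), Rarres2 (-0.68) and Syne1 (-0.87). Of the 15 fits, Ntrk2 was kept in 6, Rarres2 in 11 and the other 4 genes in all 15.

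Single libraries were compared with the rest of their group by Dixon's test in the 3 groups of 4 libraries, for the share of members, their depth, their mitochondrial share, the genes whose levels are given above and the summed markers of each list. A library stood apart in 19 of 261 such sets of 4 values, and chance gives about 1 in 20. In Y VEH, F1 was the highest for Lyz2 (663 CPM) and for the summed macrophage (753 CPM) and B cell markers (118 CPM), and the lowest for the summed immediate early and stress genes (3508 CPM). Y VEH M2 was the highest for Cdh13 (343 CPM), Nr4a1 (110 CPM), Tcf21 (45.2 CPM) and the summed erythroid markers (137 CPM), and Y VEH M1 for the summed neutrophil markers (38.3 CPM). In Y FIS, M1 was the lowest for C4b (94.8 CPM) and the highest for the summed lymphatic endothelial markers (15.5 CPM), and M2 the highest for H2-K1 (399 CPM). In O FIS, M1 was the highest for Ccl7 (33.5 CPM) and for the summed nuclear and RNA quality genes (33356 CPM), and M2 for Tdo2 (19.5 CPM). O FIS F1 was the lowest for Mme (11.6 CPM) and the highest for Sntg1 (1570 CPM) and for the summed B cell (278 CPM) and T cell markers (8.82 CPM).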

How the results depend on the processing

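The count of genes between O VEH and Y VEH (24) was 67 with DESeq2, 264 without the filter on low counts, 10 with the replicate block, 38 with those 2 groups alone, and 4 to 31 with 1 library left out. Old against young (158) gave 242, 566 without the filter and 104 to 210, and male against female (197) gave 298, 651 and 134 to 245. Without the filter, O FIS against O VEH gave 74 and Y FIS against Y VEH 51. The replicate block gave 133 for age over both treatments and 180 for sex; replicate numbers did not pair libraries (correlations of -0.208 to 0.168, 1 of 9 pairs over 0.1). For age against set A cells (0), DESeq2 gave 4, no filter 101, at least 4 genes of set C 1, leaving out the 912 members with markers of another type 9, and leaving out 1 library 0 to 5. Against set B cells (17) these were 7 with DESeq2, 188 without the filter, 8 without the 912 members and 6 to 28. For sex against set A cells (42) no filter gave 314, at least 4 genes 65, leaving out the 912 members 64, where Sbsn reversed to 0.12, and leaving out 1 library 20 to 50. Against set B cells (6) these were 183 without the filter, 17 without the 912 members and 4 to 11. Leaving out the 912 members took no cells with such markers from set A or set B, so those comparisons were cleaned on 1 side only. Without the 912, 12 named genes stayed DARs between O VEH and Y VEH and 9 did not. Between old and young 52 stayed and 16 did not, and between the sexes 46 stayed and 10 did not. The share difference of O FIS minus O VEH was 1.84 points unthinned, 0.066 at 2000 UMIs, 0.059 of all cells, 0.071 with 2 genes required, and -4.07 under the reduced rule; of all cells, O VEH minus Y VEH was -0.17 and old minus young -1.09. With 1 library left out, these differences ranged from -4.61 to 4.16 for O FIS minus O VEH, from -2.05 to 4.75 for Y FIS minus Y VEH, from 0.053 to 8.82 for O VEH minus Y VEH, from 2.11 to 5.48 for old minus young and from 13.1 to 15.1 for male minus female. In the profile, Cadm2 (-0.014554), Gpm6a (-0.47) and Muc16 (-0.28) reversed with at least 4 genes of set C and Sost (0.15) after thinning. The cause of these changes was not tested. The rule reads detection and so depends on depth, and libraries with few members, 78 at the lowest, give the least precise sums.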
